A study of Homo sapiens with 14 samples.

Results

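Knockdown of MPP8 was set directly against knockdown of TASOR in K562 cells, with no control in the contrast, to show which transcripts differed between loss of 1 HUSH subunit and loss of another. Genes entered when either group mean was above 0 on the log2 scale of the deposited table, which 15987 genes were, of 35718 distinct symbols in 35805 rows. K562 is a human leukaemia cell line with erythroid features, and the cells used here carry dCas9-KRAB, an inactive Cas9 fused to a repressor domain that lowers transcription where a guide places it. Total RNA was sequenced after ribosomal RNA depletion in 14 libraries, taken 7 days after transduction in every transduced group. The groups were MPP8 (2 libraries, 1 guide each), TASOR (2 libraries, 1 guide each), TASOR2 (3 libraries, 1 guide each), PPHLN1 (2 libraries, 1 guide each), the AAVS1-targeting control sgAAVS1 (3 libraries) and the untransduced dCas9 line (2 libraries). All 6 groups share the dCas9-KRAB transgene, and the untransduced line had no guide.

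HUSH is a complex that silences retroelements and other transcribed sequence through chromatin. In it TASOR is the scaffold, MPP8 (gene MPHOSPH8) carries a chromodomain that binds methylated lysine 9 of histone H3, and Periphilin (gene PPHLN1) is the remaining core subunit. In HUSH2, TASOR2 takes the place of TASOR, while MPP8 and Periphilin belong to both complexes. Loss of MPP8 therefore removes a subunit of both complexes and loss of TASOR a subunit of HUSH alone.

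Only the mean of each group was available, so no value has an SD, and spread between guides or between cultures could not be measured. Levels are group means of log2 reads scaled to a common depth, and a difference is the MPP8 mean minus the TASOR mean on that scale. A value after ± is the reach of the 95% counting interval on each side of a difference, and it covers counting error only. A call of higher or lower in MPP8 needed a difference of at least 1 in size, a counting interval that leaves out 0 and, in the higher group, a mean above 0. Depth was 5925920 reads per library in MPP8 and 6945067 in TASOR (geometric means recovered from the values), and 5857937 to 7406968 in the other 4 groups. For a gene at 0 reads the upper limit is 3 counts over the group, a level of -1.98 in MPP8 and -2.21 in TASOR. The 3 genes just inside the entry rule, RP11-504G3.2, KLK9 and RP11-343H19.1, had a TASOR mean of 0.0114, and the 3 just outside it, ZEB2-AS1, RP5-921G16.1 and RP11-1072A3.4, had an MPP8 mean of -0.0024. All 12 genes taken to define K562, among them GATA1, HBG1 and BCR, had means from 4.79 to 9.08 in MPP8 and from 4.98 to 9.04 in TASOR. Of 12 markers of other cell types, 5 had 0 reads in MPP8 and 4 in TASOR. In RNA from a whole culture, fewer cells making a transcript and less of it per cell cannot be told apart.

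Above the lowest levels, 2 families made up most of the genes that were higher in MPP8. Genes of the interferon response and of antigen presentation were one, with IFIH1, SAMD9, SP110, IFI6, PSMB8 and PSMB9 between 1.62 and 2.20 higher. Zinc finger genes on chromosome 19 were the other, with 11 of them among the 14 called genes of a single stretch of 576 kb. Genes lower in MPP8 mostly sat at low levels, and 0 of them were on the immune lists and 1 on the zinc finger lists. With 68 interferon-stimulated, 19 antigen presentation and 6 GIMAP and APOL genes compared, and 1.03% of all compared genes lower, that 0 does not mark the immune lists out. The inflammatory and myeloid lists had 1 lower gene each. Over all compared genes 125 were called higher in MPP8 (0.782% of those compared) and 165 lower (1.03%), in all 290 (1.81%), and 15697 were not called. The balance depended on the scaling, with 157 higher and 115 lower after quantile normalization. For scale, the same rule called 1.22% of these genes between untransduced and sgAAVS1 cells, where no HUSH subunit was targeted.

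Most differences were small. The median difference was -0.04, 40.7% of the genes had a difference above 0, and 90.5% of genes lay within 0.5 of 0. The 2 directions parted by level. Among genes whose higher mean was up to 2, 81 were higher and 147 lower in MPP8. Where the higher mean was above 2, 44 of 13480 genes were higher (0.326%) and 18 lower (0.134%), and above 3 the counts were 34 and 3. Above 5 only 7 of 9694 genes were higher, which were FAM208A, IFIH1, SAMD9, SP110, ZNF229, ZNF528 and TAP1, and the single lower one was MPHOSPH8. Between untransduced and sgAAVS1 cells, with the same limit of 2, 19 genes were higher (0.143%) and 8 lower (0.0602%).

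**Figure D1:**
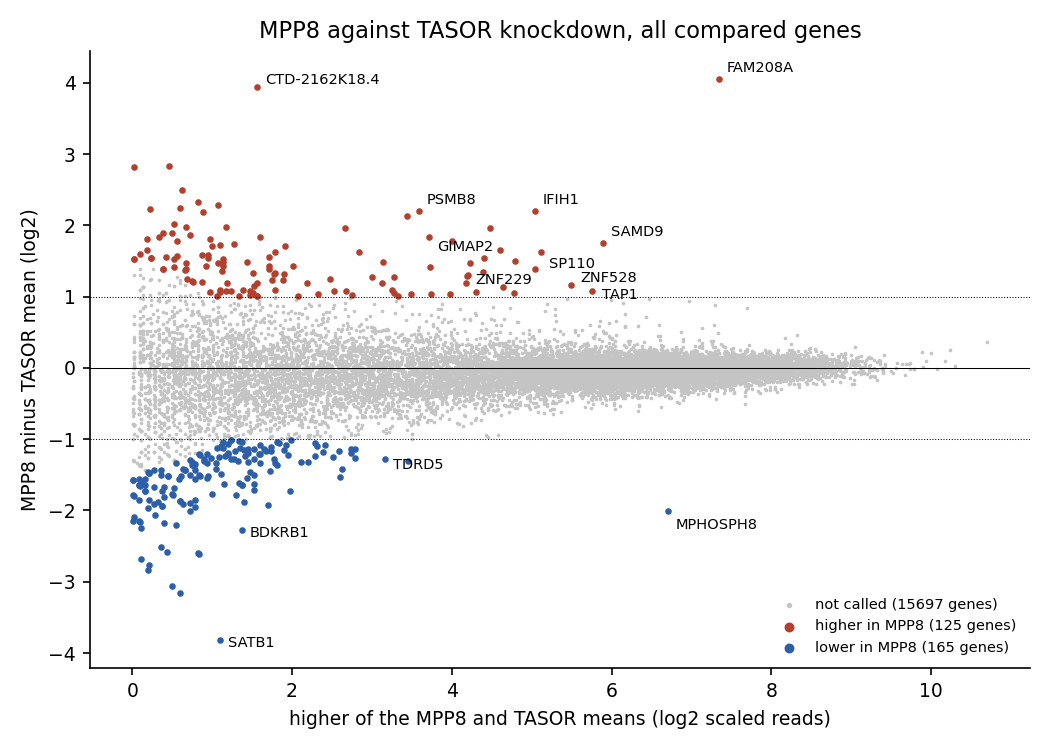
Each point is a gene, with the higher of its MPP8 and TASOR means on the x axis (log2 scaled reads) and the MPP8 minus TASOR difference on the y axis (log2). The 125 genes called higher reach into the range above 5, where IFIH1 and SAMD9 stand apart, while apart from MPHOSPH8 the 165 genes called lower lie at means below 3.5.

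Each targeted transcript was low in its own knockdown, which checks the labels. FAM208A, the table's name for TASOR (hg38, minus strand of chromosome 3, 56620133 to 56683237), had a mean of 7.34 in MPP8 and 3.29 in TASOR, beside 7.69 in TASOR2, 7.39 in PPHLN1, 7.22 in sgAAVS1 and 7.35 in untransduced cells. The difference was 4.06 ± 0.25, and the TASOR knockdown kept 6.02% of the FAM208A level of the MPP8 knockdown. MPHOSPH8 (chromosome 13, 19633681 to 19673459, plus strand) had a mean of 4.70 in MPP8 and 6.70 in TASOR, beside 6.60 in TASOR2, 6.64 in PPHLN1, 6.52 in sgAAVS1 and 6.55 in untransduced cells. The difference was -2.00 ± 0.18, and the MPP8 knockdown kept 24.9% of the TASOR knockdown's level. The MPP8 transcript was therefore left at a higher share than the TASOR transcript, and the part of this unequal depth in the differences below was not tested.

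The other subunits differed little between the 2 knockdowns. FAM208B, which encodes TASOR2, had a mean of 7.86 in MPP8 and 7.68 in TASOR, a difference of 0.19 ± 0.08. PPHLN1 had 6.66 in MPP8 and 6.80 in TASOR, a difference of -0.13 ± 0.11. Of 32 genes listed as HUSH subunits and heterochromatin partners, the 2 targeted genes were the only ones called, 1 in each direction, and the list median was -0.03, beside -0.04 over all genes.

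Promoters of 4 interferon-response or antigen presentation genes that were higher in MPP8, and of 1 zinc finger gene that was higher too, are printed to show where interferon-response letters lie. The 4 were chosen because they hold such letters: they are the 4 of 9 called genes of the interferon and antigen presentation lists with a promoter that do, while PSMB8, SP110, SAMD9L, HERC6 and HLA-B have none. They are RefSeq sequences of GRCh38.p14, from 250 bases before to 50 after the gene's start, on the gene's own strand. Capitals mark each match, on either strand, to GAAA, any 2 bases and GAAA again, the core of the interferon-stimulated response element (ISRE), which interferon-activated factors bind. IFIH1 lies at chr2:162318635-162318934 (minus), SAMD9 at chr7:93117930-93118229 (minus), IFI6 at chr1:27672143-27672442 (minus), TAP1 at chr6:32853655-32853954 (minus) and ZNF528 at chr19:52397599-52397898 (plus).
IFIH1: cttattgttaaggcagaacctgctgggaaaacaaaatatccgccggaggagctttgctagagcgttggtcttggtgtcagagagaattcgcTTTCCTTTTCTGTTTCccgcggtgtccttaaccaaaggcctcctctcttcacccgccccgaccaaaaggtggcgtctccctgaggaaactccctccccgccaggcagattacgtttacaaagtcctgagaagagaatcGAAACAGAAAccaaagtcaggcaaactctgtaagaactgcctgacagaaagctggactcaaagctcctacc
SAMD9: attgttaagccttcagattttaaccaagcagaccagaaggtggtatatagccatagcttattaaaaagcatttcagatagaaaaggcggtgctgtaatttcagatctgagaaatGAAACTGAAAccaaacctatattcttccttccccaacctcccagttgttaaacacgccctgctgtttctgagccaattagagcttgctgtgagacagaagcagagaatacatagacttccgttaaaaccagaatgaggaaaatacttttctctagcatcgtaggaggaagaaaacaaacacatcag
IFI6: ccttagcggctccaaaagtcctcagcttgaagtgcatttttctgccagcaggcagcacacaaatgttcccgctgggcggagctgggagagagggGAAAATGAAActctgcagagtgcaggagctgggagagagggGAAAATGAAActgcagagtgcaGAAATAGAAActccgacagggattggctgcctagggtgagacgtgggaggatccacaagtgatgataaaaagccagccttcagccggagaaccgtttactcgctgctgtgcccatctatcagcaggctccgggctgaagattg
TAP1: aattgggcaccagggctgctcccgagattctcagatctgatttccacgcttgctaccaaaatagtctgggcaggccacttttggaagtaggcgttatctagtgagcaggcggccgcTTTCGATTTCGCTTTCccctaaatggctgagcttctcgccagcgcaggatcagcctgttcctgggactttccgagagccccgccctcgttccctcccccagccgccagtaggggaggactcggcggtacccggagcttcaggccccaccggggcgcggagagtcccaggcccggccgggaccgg
ZNF528: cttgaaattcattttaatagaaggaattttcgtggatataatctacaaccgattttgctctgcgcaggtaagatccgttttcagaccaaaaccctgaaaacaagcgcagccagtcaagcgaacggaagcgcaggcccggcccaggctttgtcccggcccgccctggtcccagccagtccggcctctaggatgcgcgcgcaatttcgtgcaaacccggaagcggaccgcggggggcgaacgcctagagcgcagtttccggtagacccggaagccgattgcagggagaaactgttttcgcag
IFIH1 and IFI6 had 3 matches each, TAP1 2 that overlap, SAMD9 1 and ZNF528 0.

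A promoter was found for 9466 of the compared genes, and 251 of these (2.65%) held the ISRE letters. Among promoters of genes higher in MPP8 6 of 63 held them (9.52%), which were IFIH1, GCA, SAMD9, IFI6, TAP1 and GIMAP2, and among genes lower in MPP8 3 of 62 did (4.84%). Within the interferon and antigen presentation lists the letters did not separate called from uncalled genes, with 4 of 9 higher genes (44.4%) and 23 of 46 uncalled ones (50%) holding them. None of 13 higher and 147 uncalled zinc finger promoters on chromosome 19 had a match. The gamma-activated site letters TTCNNNGAA, which can share bases with an ISRE match, stood in 5.97% of all promoters, in 6 of 63 higher genes (9.52%) and in 4 of 62 lower ones (6.45%). They were in 0 of 9 higher against 9 of 46 uncalled interferon and antigen presentation genes (0% and 19.6%), and in 4 of 13 higher against 22 of 147 uncalled zinc finger genes of chromosome 19 (30.8% and 15%). CGCG, a short CpG-rich word, was in 55.6% of the promoters of higher genes, 67.7% of those of lower genes and 80% of all promoters. A match is a description of letters and not evidence of a bound site.

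Of the interferon-stimulated genes compared, 68 of 83 listed, 10 were higher in MPP8, 0 lower and 58 not called. For all compared genes the shares were 0.782% higher and 1.03% lower. The median difference of the list was 0.21, beside -0.04 over all genes, and 55 of the 68 lay above the median of all genes. IFIH1, which encodes MDA5, the sensor of long double-stranded RNA (chromosome 2), had a mean of 5.04 in MPP8 and 2.84 in TASOR, and 5.39 in TASOR2, 5.40 in PPHLN1, 2.64 in sgAAVS1 and 3.16 in untransduced cells. TASOR thus stood among the controls and MPP8 beside the other 2 knockdowns, and the difference was 2.20 ± 0.32. SAMD9, an interferon-induced factor that blocks poxvirus replication, had 5.89 in MPP8 and 4.14 in TASOR, and 6.15 in TASOR2, 6.09 in PPHLN1, 3.24 in sgAAVS1 and 3.08 in untransduced cells. Its TASOR mean lay between the controls and the other 3 knockdowns, 1.75 ± 0.21 below MPP8. SP110, a nuclear body gene induced by interferon, had 5.11 in MPP8 and 3.49 in TASOR, with 5.30 in TASOR2, 5.52 in PPHLN1, 2.96 in sgAAVS1 and 3.11 in untransduced cells, and a difference of 1.62 ± 0.27. IFI6, which limits flavivirus replication, had 4.60 in MPP8 and 2.94 in TASOR, with 4.45 in TASOR2, 4.64 in PPHLN1, 2.42 in sgAAVS1 and 2.59 in untransduced cells, and a difference of 1.65 ± 0.32. In all 4 genes the TASOR mean was nearer to the controls than to the 3 other knockdowns.

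The remaining 6 called genes of the list were DDX60L, SAMD9L, TRIM34, HERC6, IFIT2 and USP18. DDX60L, a helicase-like antiviral gene, had means of 4.40 in MPP8 and 2.86 in TASOR (difference 1.55 ± 0.33), and TRIM34, a relative of the retroviral restriction factor TRIM5, 4.38 and 3.03 (1.35 ± 0.32). In TRIM34 both controls, at 3.25 in sgAAVS1 and 3.35 in untransduced cells, were slightly above TASOR. SAMD9L, the neighbour and paralog of SAMD9, had 2.83 in MPP8 and 1.22 in TASOR (1.62 ± 0.60). HERC6, a ubiquitin ligase, IFIT2, which binds RNA, and USP18, which removes ISG15 from proteins, had means from 1.14 to 1.78 in MPP8 and -0.80 to 0.45 in TASOR, and counting intervals that reach 1.23, 1.12 and 0.83 on each side.

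Several well-known interferon targets fell short of the size rule. OAS3, an RNase L activator, had a mean of 6.15 in MPP8 and 5.23 in TASOR, a difference of 0.91 ± 0.16, and TASOR2 and PPHLN1 were at 6.03 and 6.49. ISG15, the ubiquitin-like modifier, was 0.83 ± 0.25 above TASOR, DDX58, the RNA sensor RIG-I, 0.94 ± 0.42, and PARP10 0.80 ± 0.22. ADAR, an abundant member that edits double-stranded RNA, was close in the 2 knockdowns, at 8.61 in MPP8 and 8.65 in TASOR. The list thus ran from -0.52 (TNFSF10) to 2.20 (IFIH1), and its members were not alike. ISG15, DDX58, PARP10 and TNFSF10 were picked for mention after their values were seen.

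Genes of sensing and signalling differed less. Of 19 nucleic acid sensing genes 1 was higher, IFIH1 itself, with a median of 0.13, and MAVS, the adaptor downstream of MDA5, had 9.22 in MPP8 and 9.24 in TASOR. Of 19 interferon signalling genes 1 was higher, USP18, with a median of 0.01, and 0 were lower. Among 19 restriction factors 0 were called in either direction, with a median of 0.02. Over all compared genes 1.81% were called, so counts of 0 or 1 in lists of 19 do not mark them out.

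The gene next to IFIH1 was higher too. GCA, which encodes the calcium-binding protein grancalcin, starts 137 bases away on the opposite strand and is on none of the lists. Its mean was 0.63 in MPP8 and -1.87 in TASOR, and 0.61 in TASOR2, 0.99 in PPHLN1, -1.63 in sgAAVS1 and -1.89 in untransduced cells, a difference of 2.50 ± 1.36. The GCA promoter window holds 1 ISRE match (chr2:162318696-162318705, in the window on GRCh38.p14), which is the same stretch of bases as the IFIH1 match nearest to the IFIH1 start.

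Of 19 antigen presentation genes compared (27 listed), 5 were higher in MPP8 and 0 lower, beside 0.782% and 1.03% of all compared genes. The list median was 0.24, and all 19 differences were above the median of all genes, from 0.01 in PSMB10 to 2.20. Other lists also lay mostly above that median with 0 calls: all 13 mitochondrially encoded genes (median 0.08), 70 of 78 ribosomal protein genes (median 0.10) and 26 of 31 hypoxia and glycolysis genes (median 0.09). The immunoproteasome subunit gene PSMB8 had a mean of 3.59 in MPP8 and 1.39 in TASOR, with 3.66 in TASOR2, 3.64 in PPHLN1, 1.36 in sgAAVS1 and 1.47 in untransduced cells, a difference of 2.20 ± 0.54. PSMB9, another such subunit, had 3.44 in MPP8 and 1.32 in TASOR, with 3.23 in TASOR2, 3.79 in PPHLN1, 1.32 in sgAAVS1 and 1.59 in untransduced cells (2.12 ± 0.56). TAP1, a subunit of the peptide transporter, had 5.76 in MPP8 and 4.68 in TASOR, with 5.78 in TASOR2, 6.04 in PPHLN1, 4.51 in sgAAVS1 and 4.71 in untransduced cells (1.08 ± 0.19). For all 3 the TASOR mean lay within 0.3 of the controls. These genes are neighbours (chromosome 6, 32840717 to 32859585) whose deposited models overlap, so reads may be shared between them.

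The class I genes HLA-C and HLA-B were higher as well. HLA-C had a mean of 4.64 in MPP8 and 3.51 in TASOR, against 3.53 in sgAAVS1 and 3.52 in untransduced cells, a difference of 1.13 ± 0.28. HLA-B had 3.28 in MPP8 and 2.23 in TASOR (1.05 ± 0.44), and its model overlaps that of HLA-C. TAP2, the partner of TAP1, was 0.59 ± 0.10 higher and HLA-E 0.19 ± 0.09, neither of which met the size rule. With every called gene whose model overlaps another called gene left out, 0 of the 5 calls on this list were left.

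GIMAP2 and APOL3, from a short list of immune GTPases and apolipoprotein L genes, had 2 of 6 compared members called and a median of 0.77. GIMAP2, an immune-associated GTPase, had a mean of 3.71 in MPP8 and 1.87 in TASOR, with 3.35 in TASOR2, 3.92 in PPHLN1, 1.38 in sgAAVS1 and 1.85 in untransduced cells (1.84 ± 0.46). APOL3, an interferon-induced gene of defence against bacteria in the cytosol, had 4.0 in MPP8 and 2.22 in TASOR, with 3.14 in TASOR2, 4.11 in PPHLN1, 1.92 in sgAAVS1 and 2.15 in untransduced cells (1.78 ± 0.41). APOL2 fell just short, at 5.99 in MPP8 and 5.04 in TASOR (0.95 ± 0.17), although it passed after quantile normalization, at 1.02.

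**Figure D2:**
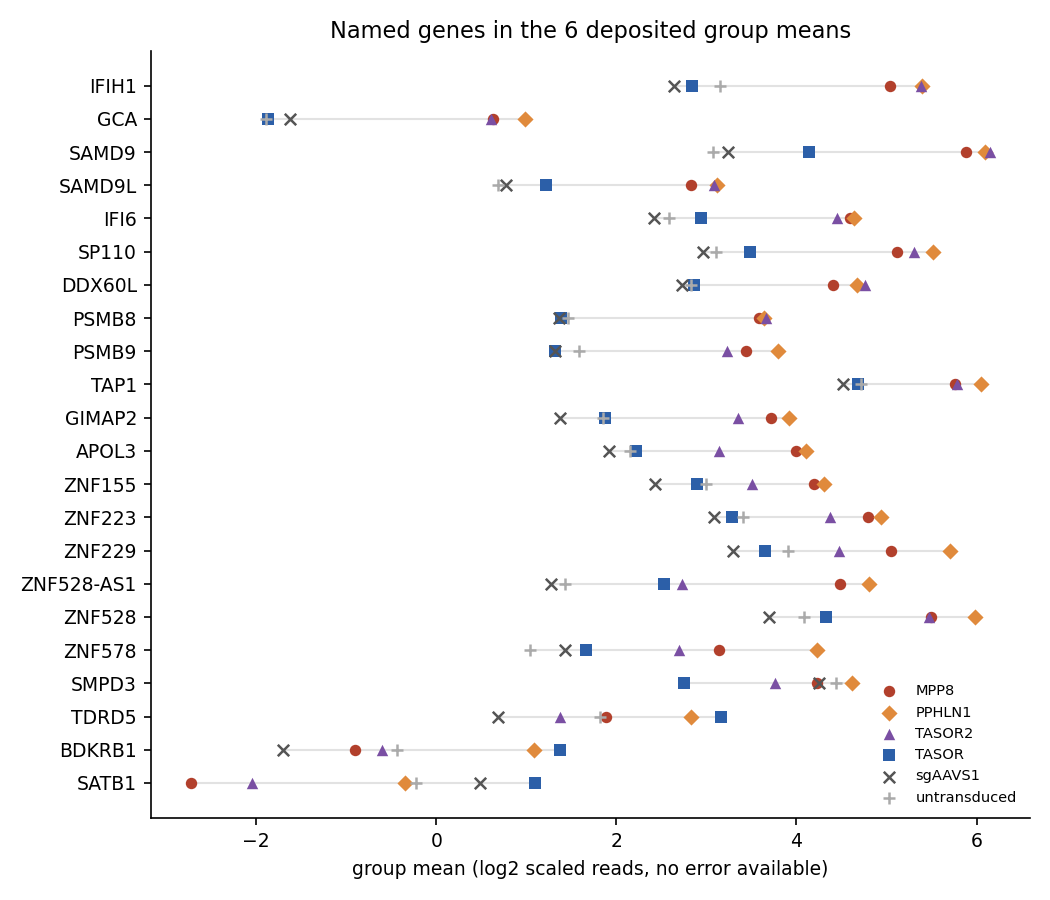
Group means (x axis, log2 scaled reads) of 22 genes (y axis) in MPP8, PPHLN1, TASOR2, TASOR, sgAAVS1 and untransduced cells, 1 symbol per group, with a grey line across the range. In the interferon and antigen presentation genes at the top the TASOR squares lie with or near the control crosses, while in SMPD3 TASOR alone is low and in TDRD5, BDKRB1 and SATB1 TASOR is the highest group.

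The numbered zinc finger genes called higher all lay on chromosome 19. Of 216 compared on chromosome 19 (240 listed), 18 were higher in MPP8, 0 lower and 198 not called, with a median of 0.05. Over all compared genes 0.782% were higher and 1.03% lower. The 18 became 10 without called genes whose models overlap, and 6 with a difference of at least 1.5. Of 212 elsewhere 0 were higher and 1 lower, ZNF483, with a median of -0.06. At the shares of all genes, these 2 counts and the 0 lower on chromosome 19 do not mark the lists out. Among 72 zinc finger genes with other names 1 was higher, ZIK1. Chromosome 19 as a whole held 29 higher genes of 1333 compared (2.18%) and 13 lower (0.975%), beside 0.782% and 1.03% of all compared genes. Zinc finger genes are similar in sequence, and reads may be shared between copies.

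The called zinc finger genes lay together. Runs of at least 3 genes called in the same direction, with starts no more than 200 kb apart, numbered 4 and held 23 higher genes, while lower genes formed 0 runs. The longest run spans chromosome 19 from 43872363 to 44448578 on hg38, from ZNF404 to ZNF229. In it 14 of 24 compared genes were called higher and all 24 had a difference above 0, with a median of 1.04. The 14 were ZNF404, RP11-15A1.3, RP11-15A1.2, ZNF221, ZNF155, ZNF222, ZNF223, ZNF284, ZNF235, ZNF233, ZNF112, ZNF285, CTC-512J12.4 and ZNF229, several of which overlap in the deposited models. With a pseudocount of 0.5, ZNF221, ZNF235 and ZNF112 were just under 1 and not called, the lowest at 0.93.

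Within that stretch the differences varied. ZNF223 had a mean of 4.79 in MPP8 and 3.29 in TASOR, with 4.37 in TASOR2, 4.94 in PPHLN1, 3.08 in sgAAVS1 and 3.41 in untransduced cells, a difference of 1.5 ± 0.29. ZNF229 had 5.05 in MPP8 and 3.66 in TASOR, with 4.48 in TASOR2, 5.70 in PPHLN1, 3.30 in sgAAVS1 and 3.91 in untransduced cells (1.39 ± 0.26). ZNF155 had 4.20 in MPP8 and 2.90 in TASOR, with 3.51 in TASOR2, 4.30 in PPHLN1, 2.43 in sgAAVS1 and 2.99 in untransduced cells (1.30 ± 0.34). In all 3 TASOR lay within the range of the 2 controls, and TASOR2 lay below both MPP8 and PPHLN1. Between called genes stood uncalled ones of higher level, such as ZNF45 at 5.86 in MPP8 and 5.58 in TASOR (0.28), and ZNF224 at 6.05 and 5.39 (0.66). ZNF230, ZNF225, ZNF234, ZNF226 and ZNF227 were 0.44 to 0.58 higher and were not called.

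**Figure D3:**
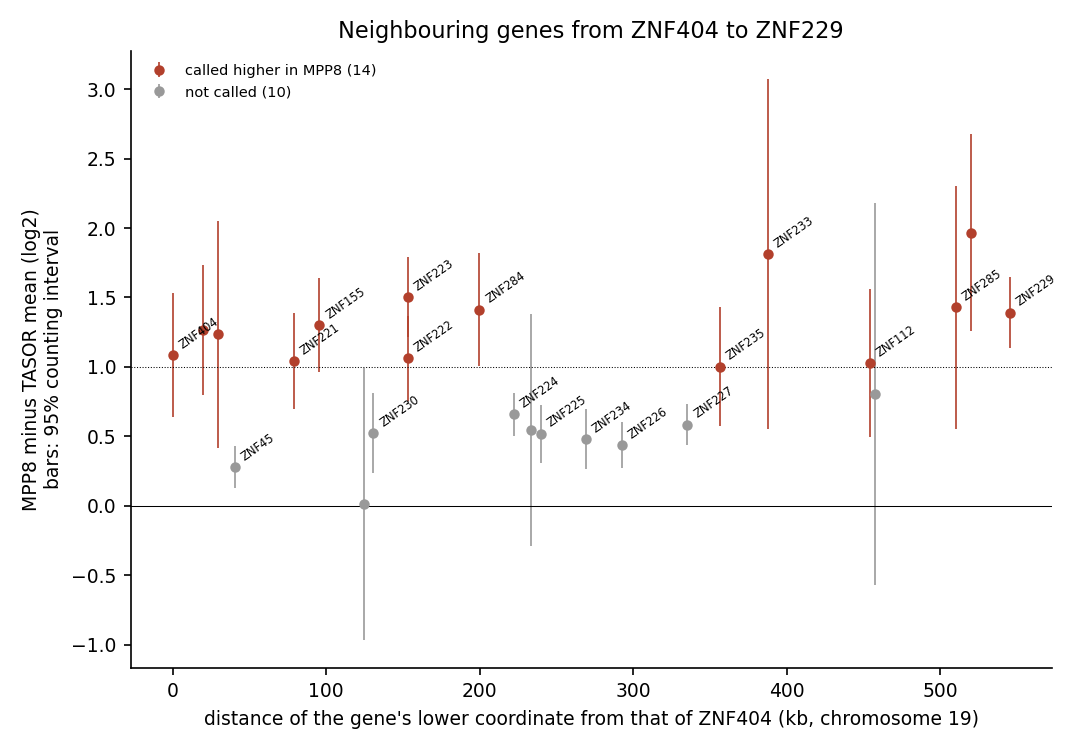
MPP8 minus TASOR difference (y axis, log2, bars for the 95% counting interval) of the 24 compared genes from ZNF404 to ZNF229, placed by the distance in kb of each gene's lower coordinate from that of ZNF404 (x axis). All 24 lie above 0 and 14 are called, with uncalled genes such as ZNF45 and ZNF226 between called ones.

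A second run held ZNF528-AS1, ZNF528 and ZNF578 (chromosome 19, 52388842 to 52512154). ZNF528-AS1 had a mean of 4.48 in MPP8 and 2.53 in TASOR, with 2.73 in TASOR2, 4.80 in PPHLN1, 1.27 in sgAAVS1 and 1.43 in untransduced cells, a difference of 1.96 ± 0.36. ZNF528, which starts 83 bases away on the other strand, had 5.49 in MPP8 and 4.33 in TASOR, with 5.47 in TASOR2, 5.98 in PPHLN1, 3.70 in sgAAVS1 and 4.09 in untransduced cells (1.16 ± 0.21). TASOR2 was thus level with MPP8 in ZNF528 and level with TASOR in its antisense neighbour. ZNF578 had 3.14 in MPP8 and 1.66 in TASOR (1.48 ± 0.52). Another run (36637192 to 36916291) held ZNF461, CTD-2162K18.4 and ZNF829, and all 8 compared genes there had a difference above 0. CTD-2162K18.4, a lincRNA gene, had the widest gap of any untargeted higher gene, with means of 1.57 in MPP8, -2.37 in TASOR, -0.47 in TASOR2, 1.91 in PPHLN1, -2.21 in sgAAVS1 and -2.96 in untransduced cells (3.94 ± 1.15). The last of the 4 runs is the PSMB8, PSMB9 and TAP1 group on chromosome 6.

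Along chromosome 19 the stretches were not alike. Between 43 and 45 Mb, 11 of 23 numbered zinc finger genes were higher, with a median of 0.66, and between 36 and 39 Mb 3 of 22, with a median of 0.46. Between 11 and 25 Mb, 0 of 52 were called and the median was -0.10, although the same 52 genes had a median of 0.40 in PPHLN1 minus sgAAVS1, where the median of all genes was 0.17. From 52 to 54 Mb the median was -0.04, with 2 of 31 higher. These windows were drawn after the values were seen.

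ZIK1, a KRAB zinc finger gene nearer to the end of chromosome 19, was stepped across the groups. Its mean was 4.19 in MPP8 and 2.89 in TASOR, with 2.88 in TASOR2, 4.61 in PPHLN1, 0.94 in sgAAVS1 and 1.5 in untransduced cells, and the difference was 1.30 ± 0.34. TASOR and TASOR2 were thus level, above both controls and below MPP8 and PPHLN1. AURKC, an Aurora kinase of meiotic cells on the same chromosome, had 4.78 in MPP8 and 3.73 in TASOR, against 3.53 in sgAAVS1 and 3.59 in untransduced cells (1.05 ± 0.26).

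A look at the controls shows which of the 2 knockdowns departed from them. Every value here also entered the contrast, so these counts describe the called genes and test nothing. Of the 44 higher genes with a higher mean above 2, MPP8 was at least 1 above both controls in 31, beside 0.46% of all 13480 genes of that level. TASOR was at least 1 below both controls in 2, FAM208A and SMPD3 (0.0148% of all). In 11 neither knockdown departed that far, beside 13398 of all 13480. Over all 125 higher genes these counts were 57, 16 and 52, beside 139, 24 and 15713 of all 15987 compared genes. TASOR lay between the higher control and MPP8 in 21 of the 44, beside 3572 of all 13480. SMPD3, a neutral sphingomyelinase, had a mean of 4.23 in MPP8 and 2.75 in TASOR, with 3.76 in TASOR2, 4.61 in PPHLN1, 4.26 in sgAAVS1 and 4.44 in untransduced cells, so here the difference of 1.48 ± 0.35 lay on the TASOR side. CXCL8, a neutrophil chemokine, had 4.18 in MPP8 and 2.99 in TASOR (1.19 ± 0.33), but the controls were themselves apart, at 4.20 in sgAAVS1 and 2.30 in untransduced cells.

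Of the 44 higher genes, 14 were on the immune lists, 13 on the zinc finger lists and 17 on neither. For scale, the 15987 genes compared at all levels held 68 interferon-stimulated, 19 antigen presentation and 6 GIMAP and APOL genes. They also held 216 numbered zinc finger genes on chromosome 19, 212 elsewhere and 72 with other names. The lists were chosen with earlier results of these data known. RARRES3, a retinoid-induced and interferon-induced phospholipase, had means of 3.0 in MPP8 and 1.73 in TASOR (1.28 ± 0.52), with 2.33 in TASOR2, 2.93 in PPHLN1, 1.52 in sgAAVS1 and 1.63 in untransduced cells. NPAP1, an imprinted gene of chromosome 15, had 3.74 in MPP8 and 2.70 in TASOR (1.03 ± 0.37), with its highest mean, 4.96, in PPHLN1 and with 2.93 in untransduced cells. Of all 125 higher genes 17 were on the immune lists, 19 on the zinc finger lists and 89 on neither. Only 17 of those 89 had a higher mean above 2.

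Lower genes had another profile. Their median higher mean was 0.95, against 1.51 for the higher genes, and 147 lay at or below 2. SATB1, a chromatin organiser known from T cells, had 0 reads in MPP8 and a mean of 1.09 in TASOR, with -2.05 in TASOR2, -0.35 in PPHLN1, 0.49 in sgAAVS1 and -0.23 in untransduced cells. TASOR was at least 8.44-fold above the limit that 0 reads allow in MPP8, leaving out the counting error of the TASOR mean. PSD2 and NEURL1 had a mean of -2.57 each in MPP8 and 0.59 and 0.50 in TASOR. These are levels of a few reads, and the controls were themselves apart, with NEURL1 at -2.30 in sgAAVS1 and -0.73 in untransduced cells and PSD2 at -0.26 and 0.87.

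Some lower genes had a TASOR mean above the controls. TDRD5, a germline Tudor-domain gene of the piRNA pathway, had a mean of 1.89 in MPP8 and 3.17 in TASOR, with 1.38 in TASOR2, 2.83 in PPHLN1, 0.68 in sgAAVS1 and 1.82 in untransduced cells, a difference of -1.28 ± 0.51. BDKRB1, a bradykinin receptor induced in inflammation, had -0.91 in MPP8 and 1.37 in TASOR, with -0.60 in TASOR2, 1.08 in PPHLN1, -1.70 in sgAAVS1 and -0.44 in untransduced cells (-2.28 ± 1.26). DSG1, a desmosomal cadherin, had 0.78 in MPP8 and 1.84 in TASOR, with -0.35 in TASOR2, 1.65 in PPHLN1, -0.80 in sgAAVS1 and 0.34 in untransduced cells (-1.05 ± 0.78), and its call was lost after quantile normalization (-0.91) and with the pseudocount (-0.88). In all 3 TASOR and PPHLN1 were the highest groups and MPP8 stood below them. Of the 18 lower genes with a higher mean above 2, TASOR was at least 1 above both controls in 3 (0.252% of all genes of that level). MPP8 was at least 1 below both in 1, MPHOSPH8 (0.00742%). Neither departed that far in 14, beside 13398 of all 13480 genes of that level. Over all 165 lower genes these counts were 25, 29 and 112, beside 110, 38 and 15713 of all 15987 compared genes. Among genes with both means above 5, MPHOSPH8 was not one, and the most negative differences were PTGS1 at -0.60 ± 0.14, LINC01278 at -0.58 ± 0.16 and SGMS1-AS1 at -0.57 ± 0.17.

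Clustered protocadherins are neuronal adhesion genes in neighbouring clusters on chromosome 5. Of 53 listed 22 could be compared, all of the gamma cluster, and 0 were called in either direction (1.81% of all compared genes). They had a median of -0.33, beside -0.04 over all genes, with a range from -0.75 in PCDHGB5 to 0.15 in PCDHGA8, and 5 lay above the median of all genes. Relative to all genes the median was -0.29, and -0.14 for the 12 members with a higher mean above 2. The members of higher level were close, with PCDHGA6 at 4.55 in MPP8 and 4.49 in TASOR (0.07 ± 0.23) and PCDHGA4 at 4.83 and 4.95 (-0.13 ± 0.21). TASOR2 was at 2.72 and 2.64 in these genes, sgAAVS1 at 2.68 and 3.15, and untransduced cells at 3.02 and 3.53. For PCDHGB2, at 4.31 in MPP8 and 4.69 in TASOR, the difference was -0.38 ± 0.24. The members share exons in overlapping models and are not separate measurements.

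In other programmes calls were few, beside 1.81% of all compared genes called in either direction. At that share, 0 calls does not mark out a list of these sizes. Of 52 erythroid genes 0 were called, with a median of -0.10, and 0 of 15 megakaryocyte genes (-0.09), while of 18 myeloid genes 1 was lower, CD14, at -1.64 in MPP8 and 0.20 in TASOR. The lists of 30 proliferation, 22 p53 target, 31 ATF4 stress, 15 heat shock, 28 cholesterol and 31 hypoxia genes had 0 calls and medians from 0.03 to 0.09. Of 21 inflammatory genes 2 were higher, CXCL8 and IL32, and 1 lower, BDKRB1. IL32, a cytokine, had 1.08 in MPP8 and -1.21 in TASOR (2.29 ± 1.32). Of 31 germline genes 1 was higher, NPAP1, and 1 lower, TDRD5. Of the 55 histone, 78 ribosomal protein and 13 mitochondrially encoded genes 0 were called, with medians of 0.02, 0.10 and 0.08. Of markers of other cell types, 1 of 9 hepatic and epithelial genes was lower (DSG1), and 0 of 8 lymphoid genes (median 0.27, 7 above the median of all genes) and 0 of 6 neuronal genes (median -0.11) were called. Of 13 small structured and other abundant noncoding RNAs 0 were called either, with a median of 0.33 and 12 above the median of all genes. The medians of the lymphoid and noncoding RNA lists were thus above those of the interferon-stimulated (0.21) and antigen presentation (0.24) lists.

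**Figure D4:**
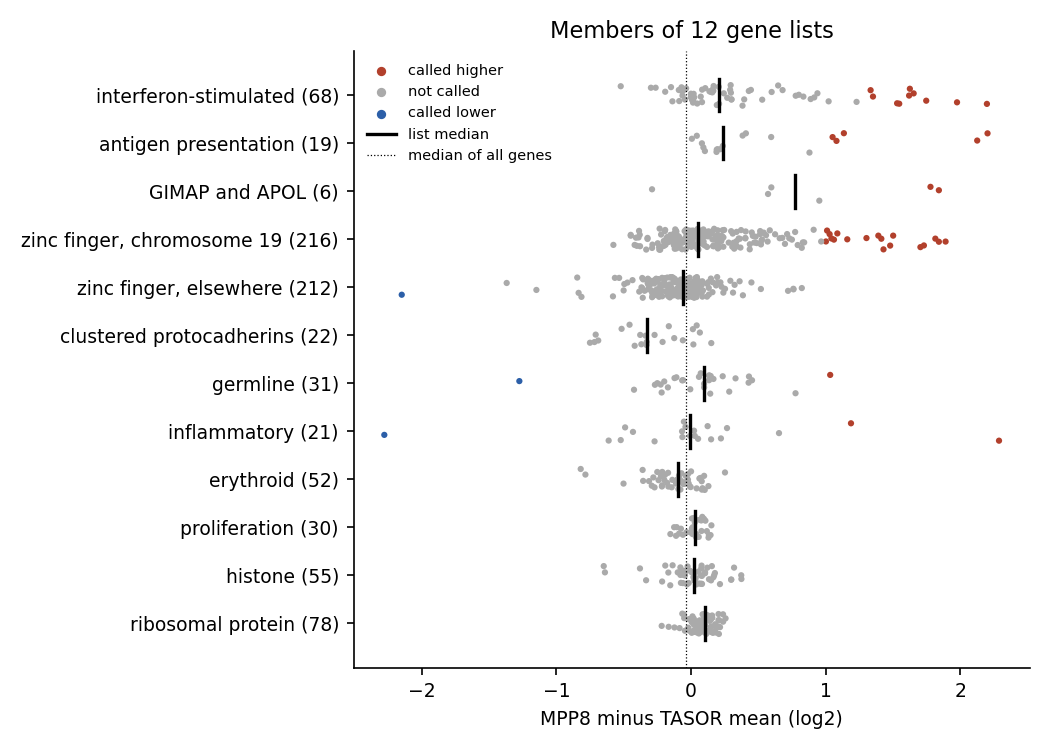
Each point is a compared member of 1 of 12 gene lists (y axis, number compared in brackets), placed by its MPP8 minus TASOR difference (x axis, log2), with a black bar at the list median and a dotted line at the median of all genes. The called members of the interferon, antigen presentation and chromosome 19 zinc finger lists form a tail to the right, and of the 22 protocadherins, which have 0 calls, 5 lie to the right of the dotted line.

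Noncoding genes had a larger share of calls than coding ones, at lower levels. Of 1025 antisense genes 11 were higher and 32 lower, and of 885 lincRNA genes 18 were higher and 28 lower, at median levels of 1.99 and 2.13. Of 13048 protein-coding genes, with a median level of 6.17, 88 were higher and 92 lower. Gene span went weakly with the difference. Spearman's rho across all 15987 compared genes was -0.0745 with span, and 0.0084 with GC content (12982 genes). Among 9694 genes above 5 it was -0.217 with span and 0.0388 with GC content (9080 genes). All genes share the same 2 group means. When genes were cut by span into 4 groups, 14 were higher and 40 lower of 3997 in the group of longest spans, and 44 higher and 71 lower of 3998 in that of shortest spans. The median level was 6.24 in the longest group and 3.66 in the shortest, so span and level were not separated. FAM86B1 (chromosome 8), at 1.07 in MPP8 and 2.59 in TASOR, and FAM85A, which starts 334 bases from it, were called in opposite directions, at -1.53 and 1.02.

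The other knockdowns are readouts that the call did not use. PPHLN1 was compared with sgAAVS1 and TASOR2 with untransduced cells, so no library was shared with the contrast or between these comparisons. Of the 125 genes higher in MPP8 than in TASOR, 57 were also higher in PPHLN1 (45.6%, beside 2.38% of all compared genes) and 0 were lower (0.469% of all). In TASOR2 29 were higher (23.2%, beside 0.963% of all) and 11 lower (3.0% of all). The shares of all are over every level, while 81 of the 125 had a higher mean up to 2. Of the 44 with a higher mean above 2, 36 were higher in PPHLN1 (81.8%) and 19 in TASOR2 (43.2%), and 0 were lower in either. The medians of these 44 were 1.86 in PPHLN1 and 0.87 in TASOR2, in log2 units against their controls. Among the 13418 uncalled genes of that level 0.842% were higher in PPHLN1 and 0.276% in TASOR2. Most of these uncalled genes had a higher mean above 5, so these shares are not matched for level either. In 37 of the 44 (84.1%) both TASOR2 and PPHLN1 stood above both controls, beside 40.7% of all 13480 genes with a higher mean above 2. Over all 125 higher genes this held for 59 (47.2%, beside 36.5% of all compared genes). Both stood below both controls in 15 of the 125 (12%, beside 4.55% of all) and in 0 of the 44. Across the 12673 genes with a level above 2 in all 6 groups, the MPP8 minus TASOR difference had Pearson's r of 0.122 and Spearman's rho of -0.0834 with PPHLN1 minus sgAAVS1, and 0.161 and 0.107 with TASOR2 minus untransduced cells. These are descriptions across genes that share the same group means.

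The lower genes differed from this. Of 165, 15 were higher (9.09%) and 3 lower (1.82%) in PPHLN1, beside 2.38% and 0.469% of all compared genes. In TASOR2 8 were higher (4.85%) and 20 lower (12.1%), beside 0.963% and 3.0% of all. The shares of all are over every level, while most of the 165 sat at low levels. The counts for these genes turned on the control, with 7 higher and 5 lower in PPHLN1 against untransduced cells (1.34% and 0.525% of all compared genes) and 10 higher and 7 lower in TASOR2 against sgAAVS1 cells (1.61% and 1.93% of all). Between untransduced and sgAAVS1 cells 15 of the 165 were higher and 1 lower (1.02% and 0.2% of all). Low genes in general varied there, with no subunit targeted. Among compared genes whose higher control mean was above 0 and up to 1, 78 of 1076 were higher and 14 lower. From 1 to 2 the counts were 66 and 10 of 1244. As 147 of the 165 had a higher mean up to 2, the 15 cannot be read as particular to these genes. Of the 18 lower genes with a higher mean above 2, 3 were higher and 0 lower in PPHLN1, and 2 were higher and 1 lower in TASOR2. Among uncalled genes of that level 0.842% were higher and 0.157% lower in PPHLN1, and 0.276% were higher and 1.51% lower in TASOR2.

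**Figure D5:**
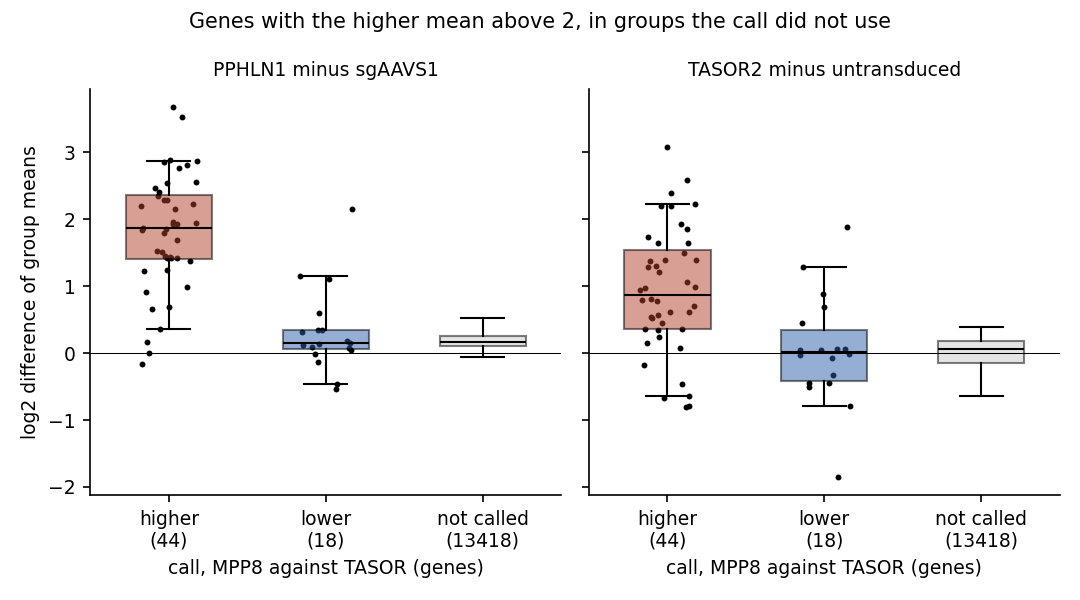
Log2 difference of PPHLN1 minus sgAAVS1 (left) and TASOR2 minus untransduced cells (right) for genes with a higher mean above 2 that were called higher (44), called lower (18) or not called (13418) between MPP8 and TASOR. Boxes show quartiles and median, whiskers the 5th and 95th percentiles, and points single called genes. The higher genes centre at 1.86 and 0.87, above the uncalled genes.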

How the data were processed

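The labels list 14 RNA-seq libraries of K562 dCas9-KRAB cells in 6 groups, which the samples' titles give. Per the labels' protocols, total RNA was treated with DNase, depleted of ribosomal RNA and made into strand-specific libraries. Per the submitters' processing notes, cutadapt, Bowtie2 and the build hg38 were used. Not given in the sources used here: tool versions, the read counter, its annotation, duplicate handling and whether counting used strand.

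A single table of group means was deposited by the authors, in which the untransduced column is a mean log2 value and the values of the other 5 columns show them to be ratios (the mean log2 value of a group over that of untransduced cells). Each ratio was multiplied by the untransduced value to recover the group's mean log2 value, which is less exact for the 64 compared genes whose untransduced value lies within 0.05 of 0. Low values were whole-read steps (100% within a relative tolerance of 0.001, with 0 reads set to 0.9), which gave each group's depth and the number of libraries in its mean: 3 for sgAAVS1 and 2 for every other group, although the labels list 3 for TASOR2. Where a symbol stood on several rows the row of highest mean was kept, and 16 of 16003 rows were dropped.

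The deposited table has no single libraries, so no test was made and no p-value is given. Calls follow the rule of size in the report, with a Poisson counting interval at the recovered depth, and the calling step was tested on simulated data. Members and the 32 gene lists were chosen with earlier results of these data known. Named genes are the 4 targets, the 15 higher and 15 lower genes whose counting interval lies farthest from 0, the 8 higher and 8 lower genes with both means above 5, up to 4 called members and the 2 of highest mean per list, and all run members. Named beside the rule, after values were seen, were DDX60L, SAMD9L, TRIM34, HERC6, IFIT2, GCA, HLA-B, HLA-E, TAP2, PSMB10, AURKC, RARRES3, SMPD3, PCDHGA8, PCDHGB2, PCDHGB5, FAM85A and the uncalled neighbours of runs. Gene class and GC content came from GENCODE 29 (12982 genes with a GC value), promoters from RefSeq GRCh38.p14 (8815 genes matched by symbol and 651 by an older symbol, start within 1000 bases). Python 3.11.15, pandas 2.3.3, numpy 2.4.6, scipy 1.17.1 and matplotlib 3.10.9 were used. Alternatives changed the scaling, the low-value filter, the size and interval limits, the pseudocount, the GC trend and the control.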

Additional observations from a re-analysis of the deposited data

How the results depend on the processing

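No single library was analysed, so no library could be left out and spread between guides is unknown. No paired analysis was possible because the table holds only 1 mean per group, while the guide numbers belong to single libraries. Depth limits what can be said below a level of 2, where a counting interval often reaches 1 log2 unit. Against 125 higher and 165 lower genes, the counts were 206 and 310 with no filter on low values, 44 and 18 with the higher mean above 2, 53 and 78 with a difference of at least 1.5, 81 and 84 with a 99% interval, and 75 and 80 with a pseudocount of 0.5 on the linear scaled level. Among genes with a GC value 99 were lower, and 92 with the GC trend removed. A looser or stricter rule or fewer genes tested gave these counts by construction, except with the pseudocount and the GC trend, where the cause was not tested. Median centring (135 and 154) kept 125 of the higher and 154 of the lower calls, and quantile normalization (157 and 115) kept 125 and 115. Of 60 called named genes other than targets, 31 passed with the higher mean above 2, 37 at 1.5, 45 without overlapping called models, 52 had a GC value, 53 passed with the pseudocount, and 58 each with the 99% interval and quantile normalization. Antigen presentation calls numbered 5, 2 at a difference of 1.5 and 0 without overlapping called models. Chromosome 19 zinc finger calls numbered 18, 6 at 1.5 and 10 without overlapping models. The overlap setting and the set of genes with a GC value were chosen after seeing the data. Relative to all genes, the protocadherin median was -0.29, 0.0 with no filter (53 members) and -0.14 above 2 (12 members), and the interferon median 0.25, 0.0 with no filter. Without the filter, genes at 0 reads in both groups enter. They share 1 difference that depth sets, as 0 reads stand at -2.719 in MPP8 and -2.948 in TASOR. The 0.0 values therefore cannot show whether the list shifts were kept. With untransduced cells as the control, 1 higher gene was lower in PPHLN1, and 7 lower genes were higher and 5 lower in it. With sgAAVS1 as the control 7 lower genes were lower in TASOR2.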
